A study of Mus musculus with 3 samples.

Results

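C1q macrophages of the tendon injury site are described here: cells of 1 single-cell library that carried Csf1r and C1q RNA but at most 2 molecules of 3 RNAs that mark long-settled tissue macrophages. The 584 members were chosen by a rule on measured RNA, from 4978 cells of that library that passed a filter on genes and mitochondrial RNA, or 11.7% of them (95% exact binomial interval 10.9 to 12.7). The series held 9725 cells in all, of which 9002 passed. In it, mice of 10 weeks received a burn to the back together with complete transection of the Achilles tendon, an injury after which bone forms in the tendon region (heterotopic ossification, HO), and cells were taken 3 days later from the marrow of the femur, the circulation and the wounded tendon, with 1 library for each. The study's methods give male C57BL/6J mice, and no uninjured library was analysed here. The marrow was flushed, the blood was spun on a Ficoll gradient, red cells of both were lysed, and the tendon was digested with collagenase and dispase. Site, preparation and library therefore cannot be told apart, and the sources used here do not say how many mice each library came from. No test between conditions was possible with 1 library per site. Every interval below is a 95% interval that covers counting error only, and every level is given in CPM, the unique molecular identifiers (UMIs, the counted RNA molecules) of a gene per 1000000 UMIs summed over the cells of a group.

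C1q is the recognition part of the classical complement pathway, built from chains encoded by C1qa, C1qb and C1qc, and macrophages make most of it. Csf1r encodes the receptor for the growth factor that macrophages depend on. In an injured tissue, monocytes from blood enter within days and can mature into macrophages, taking on lysosomal and lipid-handling genes while losing monocyte genes, beside macrophages that were in the tissue before. Folr2, Cd163, Cbr2 and Lyve1 are commonly used to mark the latter.

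The rule asked for at least 1 Csf1r UMI, at least 10 UMIs of C1qa, C1qb and C1qc together per 10000 UMIs of the cell, at most 2 UMIs of Folr2, Cd163 and Cbr2 together, fewer than 5 UMIs of the division genes Mki67 and Top2a, and less than 2% of UMIs from the neutrophil genes S100a8 and S100a9. Applied one after another, these steps left 2770, 1488, 615, 588 and 584 cells. The C1q genes lie side by side on the minus strand of chromosome 4 (GRCm38, GENCODE M21), C1qa at chr4:136895917-136898803, C1qc at chr4:136889804-136893065 and C1qb at chr4:136880129-136886187. The rule found 37 cells in blood and 2 in bone marrow. Members held a median of 11829.5 UMIs (837 to 50808) and 6908391 UMIs in sum. They were set beside the 2 groups of the same library that failed 1 criterion each: 1005 low-C1q cells, which had fewer than 10 C1q UMIs per 10000 and a median depth of 11138 UMIs, and 808 C1q cells with resident markers, which had 3 or more UMIs of Folr2, Cd163 and Cbr2 and a median depth of 15278.5. The cut on resident markers counted UMIs and not shares, so it fell more strictly on deep cells.

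C1q was spread widely inside the group. Its 3 genes together ranged from 10.0 to 320 UMIs per 10000 with a median of 52.0, and C1qb was seen in 99.8% of members, C1qc in 95.2% and C1qa in 92.6%. Cells with at least 2% of UMIs from S100a8 and S100a9 held C1q at 377 CPM, against 6379 in members, and 17.9% of those 549 cells had a C1q UMI at a median depth of 3823. In 824 cells without Csf1r and with abundant collagen or keratin RNA, C1q was at 15.4 CPM. It was seen in 33.6% of these cells at a median depth of 32429, so a single C1q UMI was at the level of background in this library.

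Adgre1 (F4/80) was seen in 80.0% of members and Cd68, a lysosomal protein of phagocytes, in 92.1%. Mertk, a receptor for dying cells, was seen in only 36.8%, and in 12.4% of members thinned to 3000 UMIs. Spp1, osteopontin, was widespread in this library: after every cell was thinned to 3000 UMIs, it was seen in 50.7% of 556 members, in 48.1% of 387 cells rich in S100a8 and S100a9 and in 15.0% of 641 cells without Csf1r that carried fibroblast RNA.

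Markers of other cells were low, and a few cells carried most of the fibroblast, hemoglobin and mast cell RNA. T cell, B cell and NK cell lists summed to 3.91, 11.9 and 0.145 CPM, with Cd3d, Cd3g, Cd8a, Ms4a1, Ncr1 and Eomes at 0. Trac and Trbc2 of the T cell list and Ighm of the B cell list had no entry under these symbols in the counts. The dendritic cell list summed to 9.55 CPM, its highest gene being Cd209a at 2.90, and Clec9a and Siglech were at 0. The neutrophil list summed to 233 CPM against 492 in low-C1q cells, with S100a8 highest at 114. The rule itself limited S100a8 in both groups, so this sum does not show how little neutrophil RNA they held. The fibroblast list summed to 299.9, led by Col3a1 at 104, and 4 members held 78.7% of its 2072 UMIs. A single member held 1635 of the 1638 hemoglobin UMIs and another 1184 of the 1196 UMIs of 4 mast cell genes. These cells met the rule and were kept.

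Low-C1q cells were more mixed. Among them, 84 cells had collagen or keratin RNA at 20 or more UMIs per 10000 and 106 had little of the myeloid genes Tyrobp and Fcer1g. The 118 cells that met either, called stromal or low-myeloid here, held 26.3% of the UMIs of the group, against 1.55% for 15 such cells in members. Values for the remaining 887 low-C1q cells are therefore given too, a choice made after these data were seen. Members kept their 15 cells, so the values without the 118 cells say nothing about collagen-type genes.

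**Figure D1:**
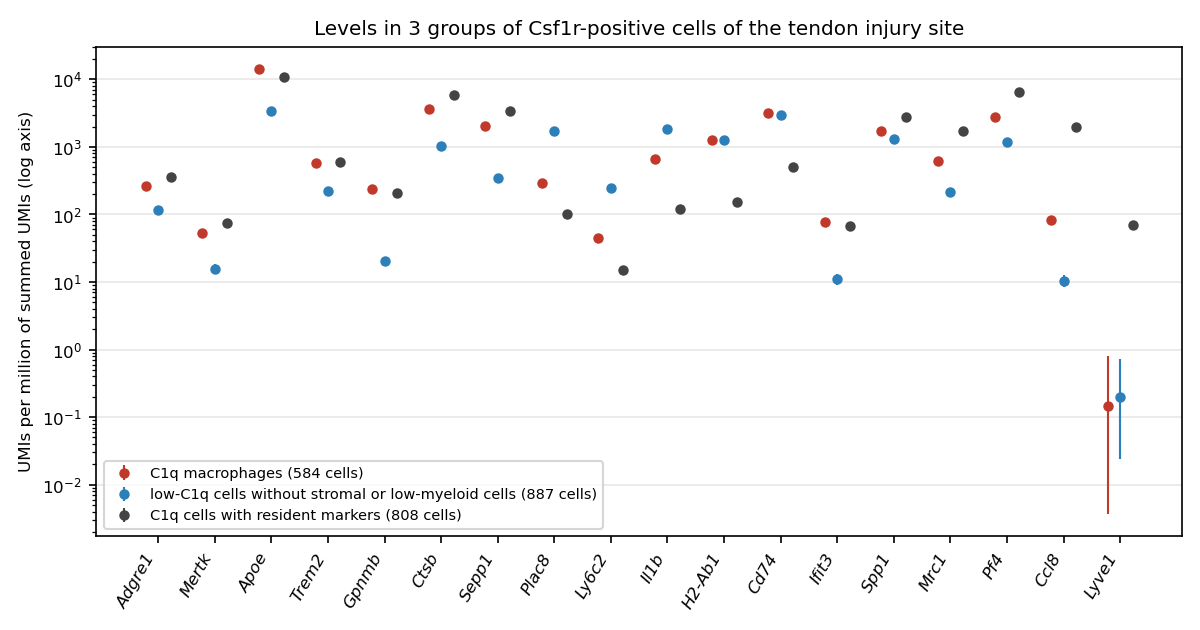
Level of 18 genes, in CPM on a log axis, in C1q macrophages, low-C1q cells without the 118 stromal or low-myeloid cells, and C1q cells with resident markers. Points are sums over cells and bars are 95% Poisson intervals, mostly smaller than the point. Apoe, Trem2, Gpnmb and Ifit3 sat near the resident-marker group, H2-Ab1 and Cd74 near the low-C1q group, and Plac8, Ly6c2, Il1b, Mrc1 and Pf4 between the groups.

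Against low-C1q cells, members held more RNA of lysosomal, lipid-handling, mature macrophage and interferon-induced genes and less of monocyte genes. Of 8835 genes with at least 100 UMIs, 306 (3.46%) were at least 2-fold higher and 882 (9.98%) at least 2-fold lower. Without the 118 stromal or low-myeloid cells, 288 of 7797 genes (3.69%) were higher and 176 (2.26%) lower. The most reduced genes against the whole group were those of other tissues, such as Prg4 at 19.1 against 1023 CPM, Dcn at 36.9 against 848 and Col1a2 at 67.0 against 1199.7. Removing stromal or low-myeloid cells from both groups brought Prg4, Dcn and Col1a2 to log2 ratios of 0.41, 0.44 and −0.43.

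The lysosome and lipid list gave 13 of 30 genes higher and 3 lower (14 and 1 without the stromal or low-myeloid cells), with a median log2 ratio of 0.86 against −0.04 for all genes. Gpnmb, a lysosomal glycoprotein of lipid-laden macrophages, showed the highest ratio of the genes seen in at least 10% of cells, rule genes left out. It stood at 239 CPM (228 to 251) in members, 17.9 in low-C1q cells and 210.1 in C1q cells with resident markers. Apoe, a carrier of cholesterol, stood at 14034, 2591 and 10816, and Trem2, a lipid receptor of macrophages, at 569.9, 170.1 and 597. The cathepsins Ctsb and Ctsd, proteases of the lysosome, were at 3605 and 2012 in members against 886 and 578 in low-C1q cells, log2 ratios of 2.02 and 1.80. Legumain (Lgmn) and progranulin (Grn) had log2 ratios of 1.60 and 1.36. Ctsk, a cathepsin of osteoclasts, went the other way at 10.9 against 105. Fabp4 and Cd9 were also lower, at 120.0 against 269.98 and 75.6 against 230.2, but without stromal or low-myeloid cells among the low-C1q cells, where they were at 35.2 and 113, Fabp4 was higher in members (log2 ratio 1.77) and Cd9 was less than 2-fold lower.

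Of 14 macrophage identity genes, 7 were at least 2-fold higher (6 without stromal or low-myeloid cells) and 0 lower. Mertk was at 54.0 against 12.7 CPM, the transcription factor Maf at 303 against 89.7, Adgre1 at 263 against 88.1, Aif1 at 843 against 270.2 and Irf8 at 134 against 41.9. Cd14 and Lyz2, which monocytes carry too, stayed within 2-fold, at 763 against 928 and 11313 against 8285. Sepp1, the gene for a selenium carrier protein, had a log2 ratio of 2.81, at 2049.5 against 292. Other leading genes were Fcrls (130.1 against 11.5), Syngr1 (112 against 10.4), the prostaglandin D synthase Hpgds (51.1 against 5.04) and the stress-induced cytokine Gdf15 (100.02 against 10.97). Hpgds reached the minimum only through members.

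Monocyte genes were lower, though some remained well above 0. Of 12 genes, 6 were at least 2-fold lower and 0 higher, with a median log2 ratio of −1.19. Plac8 was at 291 CPM in members against 1348 in low-C1q cells, Ly6c2 at 45.3 against 188, Vcan at 132 against 503 and haptoglobin (Hp) at 92.5 against 419. Ccr2, the receptor through which monocytes leave the marrow, stood at 517 against 507, with a UMI in 75.2% and 80.2% of cells. Without the stromal or low-myeloid cells, Ccr2 was at 671 in low-C1q cells, and all 12 genes had a log2 ratio below 0, 7 of them past 2-fold, with a median of −1.57. Genes that led the decrease once stromal or low-myeloid cells were left out included Ifitm6 and Slpi, at 30.0 against 275 and 58.2 against 419. Pglyrp1, Ear2 and the muscle actin Acta2 were among them too, but reached the minimum only through the low-C1q cells. They stood at 1.45, 4.63 and 8.54 in members.

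The interferon list gave 10 of 14 genes higher (9 without stromal or low-myeloid cells) and 0 lower, with a median log2 ratio of 1.36. Ifit3 was at 77.9 CPM against 9.34, Ifit2 at 77.9 against 7.71 and Rsad2 at 129 against 28.9, while Isg15, at 238 against 135, stayed under 2-fold. This RNA came from few cells. Ifit3 was seen in 78 members (13.4%), and the 58 cells with the most held 95.7% of its UMIs. For the whole list, the highest 58 cells held 64.9%. The lysosome and lipid list as a whole had 30.2% in its own highest 58 cells, against 75.3% for Gpnmb, 68.0% for Spp1 and 56.1% for the 4 MHC class II genes.

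Inflammatory mediators split. Of 23 genes, 5 were higher and 5 lower. Il1b, encoding interleukin 1β, was lower in members at 661 CPM against 1407, and so were Il1a, Il6, Cxcl3 and Irg1, the gene also called Acod1, whose enzyme makes itaconate. Irg1 was at 6.80 (4.999 to 9.05) against 20.3 and was seen in 4.11% of members. The chemokines Ccl12 (90.8 against 7.93), Cxcl16 (282 against 83.6), Ccl4 (226 against 80.5) and Ccl3 (151 against 58.5) were higher, and the anti-inflammatory cytokine Il10 was at 109 against 51.1. Cxcl2, which attracts neutrophils, was at 4495 against 4938, and Tnf at 265 against 241. Without the stromal or low-myeloid cells, Il10 and Ccl3 were under 2-fold, with log2 ratios of 0.68 and 0.96. Tnf then stood lower in members than in low-C1q cells, at 265 against 318.5, and the median of the list went from 0.19 to −0.15, with 9 in place of 14 genes above 0.

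Genes of glycolysis and hypoxia were mostly lower by less than 2-fold: 21 of 23 had a log2 ratio below 0, with a median of −0.37, and 0 were at least 2-fold higher and 1 lower. Without stromal or low-myeloid cells, 19 of 22 were below 0. Nos2, the inducible nitric oxide synthase, had 0.434 CPM in members and 4.74 in low-C1q cells. The 4 leading genes of antigen presentation by MHC class II were close in both groups, with log2 ratios of 0.42 for H2-Ab1, 0.55 for H2-Aa, 0.35 for H2-Eb1 and 0.53 for Cd74. Without stromal or low-myeloid cells these were 0.00, 0.13, −0.07 and 0.12, and the median of the list went from 0.35 to −0.07.

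**Figure D2:**
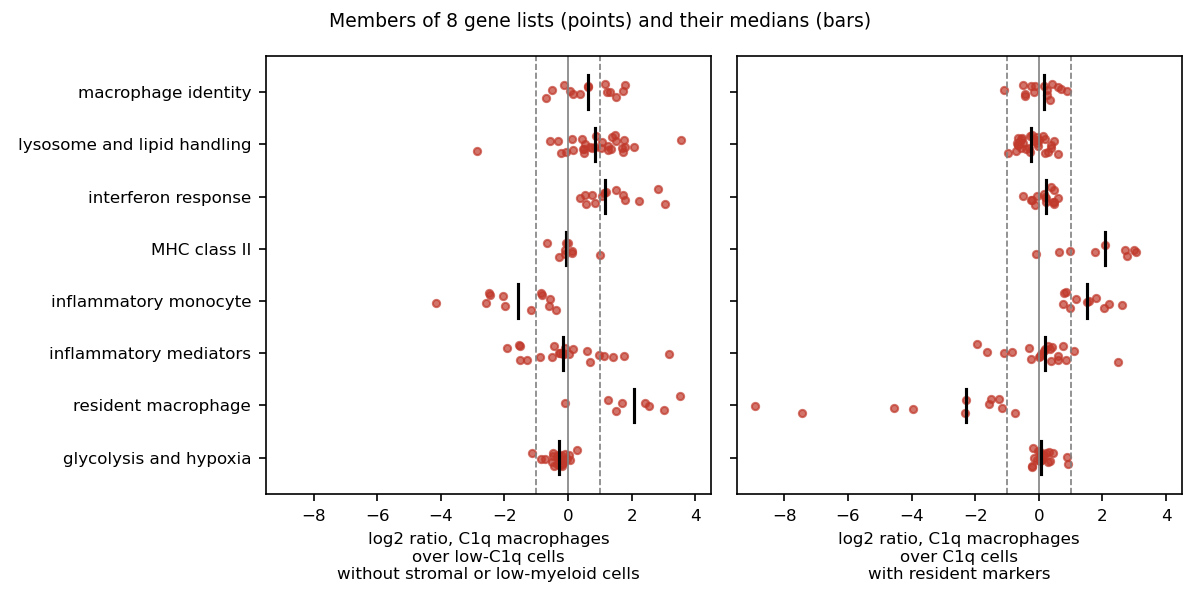
Log2 ratio of C1q macrophages over low-C1q cells without stromal or low-myeloid cells (left) and over C1q cells with resident markers (right) for each gene of 8 lists with at least 100 UMIs. Each point is a gene, black bars are list medians, and dashed lines mark 2-fold. Monocyte genes lay left of 0 in the first comparison and right of it in the second. The MHC class II genes sat mostly within 2-fold in the first and mostly above 2-fold in the second. Lyve1, Cd209f and Fcna of the resident list passed the minimum only through the group where they were high.

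C1q cells with resident markers differed from members by 2-fold or more in most tested MHC class II, monocyte and resident genes, and by less in lysosomal genes. Of 8458 genes, 158 (1.87%) were at least 2-fold higher in members and 255 (3.01%) at least 2-fold lower. None of 30 lysosome and lipid genes and none of 15 interferon genes passed 2-fold in either direction, with list medians of −0.24 and 0.21 on the log2 scale against −0.14 for all genes. Of the lysosome and lipid genes, 22 of 30 were below 0, with Ctsb at 3605 against 5808 and Ctsd at 2012 against 3311. Gpnmb had a log2 ratio of 0.19 (0.10 to 0.28), Trem2 of −0.07 (−0.12 to −0.01) and Rsad2 of −0.05 (−0.16 to 0.07).

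MHC class II genes were higher in members. Of 9 genes on the list, 6 were higher and 0 lower, with a median log2 ratio of 2.09. H2-Ab1 was at 1250.4 CPM (1224 to 1277) in members and 150.4 in C1q cells with resident markers. H2-Aa was at 1301 against 190.4, H2-Eb1 at 1007 against 126 and the invariant chain Cd74 at 3229 against 496. Ciita, the master activator of these genes, was sparse, at 5.65 (4.01 to 7.72) against 1.61. Monocyte genes were likewise higher, 7 of 11 by at least 2-fold and 0 lower, among them Hp (92.5 against 15.0), Vcan (132 against 28.8), Ly6c2 (45.3 against 15.3), Plac8 (291 against 101) and Thbs1 (1156 against 511). Il1b was at 661 against 118. Among genes seen in at least 10% of members, the highest ratios belonged to Gm9733 and Ifitm1, at 27.6 against 1.92 and 259 against 22. Gm9733 reached the minimum only through members.

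Of the resident genes that the rule did not use, 8 had over 100 UMIs in members alone, and 7 of these were at least 2-fold lower and 0 higher. The chemokine Ccl8 was at 83.7 against 1957, Mrc1, the mannose receptor CD206, at 609 against 1735, Pf4 at 2788 against 6591, and the growth factors Gas6 and Igf1 at 68.8 against 343 and 33.4 against 162. Stab1, a scavenger receptor, was at 167 against 488. Lyve1, the hyaluronan receptor of vessel-associated macrophages, Cd209f and Fcna reached the minimum only through the group in which they were high, and stood at 0.145, 0.434 and 1.88 against 70.8, 75.1 and 28.9. Hmox1, which degrades heme, was at 522 against 1390.0, and the monocyte-attracting chemokines Ccl2 and Ccl7 at 439.8 against 937 and 218 against 846. Against low-C1q cells, 7 of the same 8 genes had log2 ratios above 0, with 5 at least 2-fold higher in members, while Igf1 was at least 2-fold lower, and the median log2 ratio was 1.80. Without stromal or low-myeloid cells among the low-C1q cells, 7 of the 8 were at least 2-fold higher, Igf1 included, and 0 lower, with a median of 2.06. Mrc1 and Pf4 were at 163 and 864 in low-C1q cells, so members lay between both groups for them.

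Members just inside and outside the cut on resident markers are described by their UMI count of Folr2, Cd163 and Cbr2. There were 339 members with 0 such UMIs, 151 with 1 and 94 with 2, beside 79, 81 and 47 outside the rule with 3, 4 and 5. H2-Ab1 stood at 1520.5, 1012 and 781 CPM with 0, 1 and 2, and at 175, 241 and 110.1 with 3, 4 and 5. Mrc1 moved less across the line, at 761 with 2 and 923 with 3. Pf4 went from 2926 to 6359 and Plac8 from 137 to 57.8 between the same bands, while Ccl8 reached 2419.9 only in the 601 cells with 6 or more. Median depth was 11238 UMIs with 0 such UMIs, 13304 with 2, 13285 with 3 and 15907 with 6 or more, and its part in these differences was not tested.

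**Figure D3:**
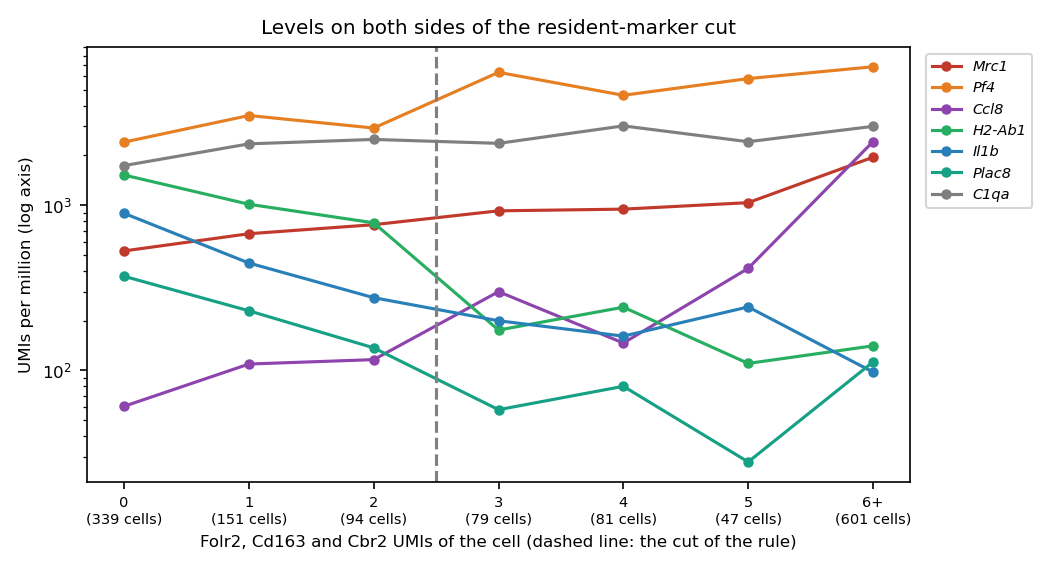
Level of 7 genes, in CPM on a log axis, in C1q cells by their UMIs of Folr2, Cd163 and Cbr2, with members left of the dashed line. H2-Ab1 lies between 781 and 1520.5 on the left of the line and at 241 or less on its right. C1qa lies between 1734 and 3015, but the C1q cut selected for it in every band.

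Around the C1q cut itself these genes made no common step. The 25 cells with 10 to 12 C1q UMIs per 10000 had Apoe at 4083 CPM, Plac8 at 900.4 and Il1b at 1362, and the 24 cells with 8 to 10 had 6555, 695 and 1949. Across wider bins without stromal or low-myeloid cells, Ctsb went from 942 CPM in the 784 cells with fewer than 2 C1q UMIs per 10000 to 2309 in the 56 cells with 5 to 10 and 4254 in the 356 cells with 40 or more. Gpnmb went from 15.6 to 83.4 and 283 over the same bins, and Plac8 from 1879.9 to 635 and 179. H2-Ab1 had no single direction, at 1301, 741 and 1326. Between these bins Gpnmb did not rise steadily. It was at 234 CPM in the 83 cells with 10 to 20 and at 127 in the 130 cells with 20 to 40. Plac8 was at 705 and 371 there.

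**Figure D4:**
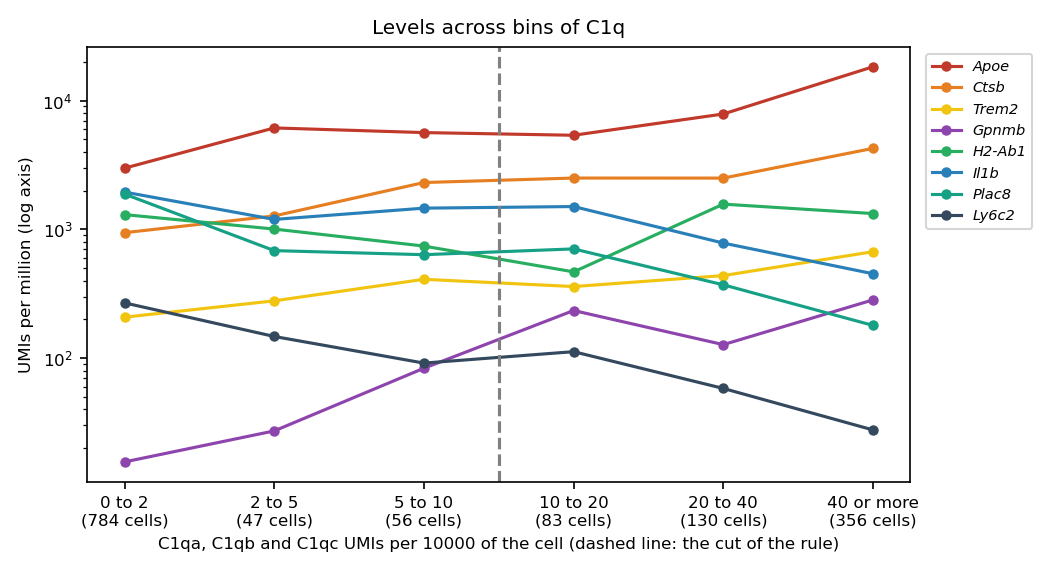
Level of 8 genes, in CPM on a log axis, in 6 bins of C1q among Csf1r-positive cells with at most 2 resident-marker UMIs and without stromal or low-myeloid cells. Members lie right of the dashed line. Apoe, Ctsb, Trem2 and Gpnmb end higher on the right than they start on the left, and Plac8, Ly6c2 and Il1b lower.

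Among members, MHC class II RNA was high in cells with less RNA of Spp1, Pf4 and some lysosomal genes, such as Gpnmb and Ctsd. The 4 genes H2-Aa, H2-Ab1, H2-Eb1 and Cd74 together had a median of 4.22 UMIs per 10000 and reached 804, and 155 members had none. Over members thinned to 3000 UMIs, the variance of Cd74 was 33.7 times its mean. Among genes seen in at least 10% of these cells, Cd74 came next after Gm42418 at 118 and Apoe at 59.0 and ahead of Spp1 at 32.9. The median over 3486 genes, not limited in this way, was 1.09. In the 195 members lowest in these genes Spp1 was at 3018 CPM, in the middle 195 at 1653 and in the highest 194 at 487, and the chemokine Pf4 at 4510.0, 2826 and 1019. Gpnmb stood at 429, 191 and 95.9, Ctsd at 3217, 1828 and 986, and Fabp5, a fatty acid binding protein, at 2191, 1597 and 604. Apoe changed less, at 16027, 13879 and 12187. The median depths of the 3 sets were 12300, 11678 and 11718 UMIs.

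Of 4611 genes, 50 (1.08%) were at least 2-fold higher in the MHC-high than in the MHC-low members and 101 (2.19%) at least 2-fold lower. Beside H2-DMa and H2-DMb1, which help load peptides onto MHC class II, those higher included Clec4b1 (53.2 against 2.17 CPM), Tmem176a (316 against 50.3), Tmem176b (383 against 74.6), Cd72 and the decoy receptor Il1r2. Il1b was at 874 against 343 and Plac8 at 386 against 154. The chemokines Cxcl3 (5.23 against 115) and Ppbp (14.8 against 178), the clotting factor F7 and Pdpn were lower. Of 29 lysosome and lipid genes, 6 were lower and 1 higher. Dendritic cell genes stayed sparse in the MHC-high members, with Flt3 at 2.62 CPM and Zbtb46 at 1.31. Cd209a was at 8.28 there against 2.90 over all members, so its few UMIs were not spread evenly. Whether dendritic cells were among the MHC-high members was not tested.

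**Figure D5:**
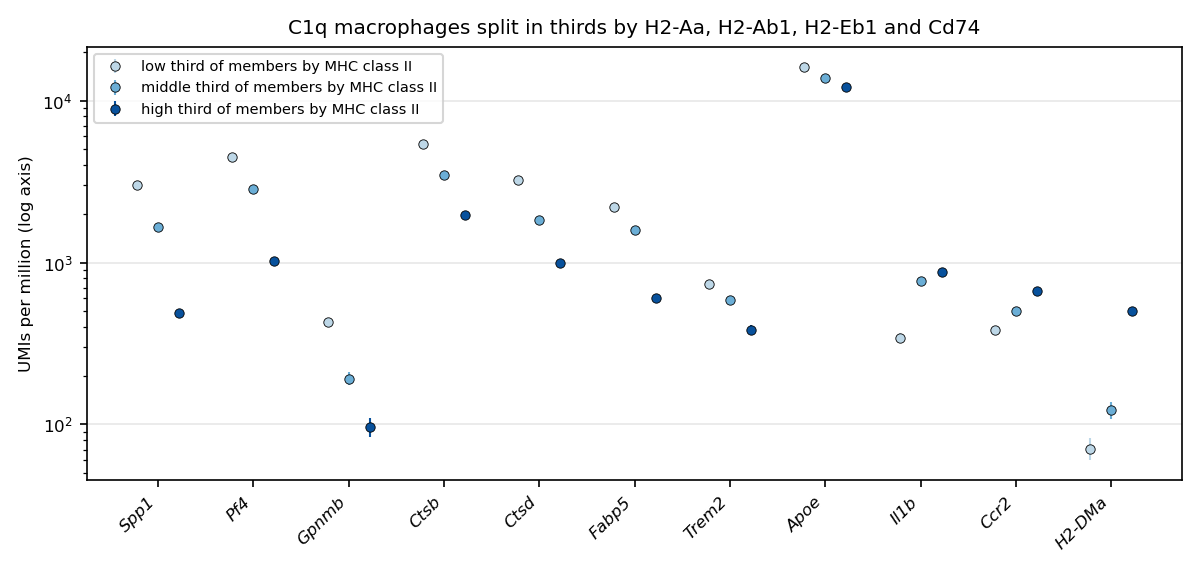
Level of 11 genes, in CPM on a log axis with 95% Poisson intervals, in C1q macrophages divided into low (195 cells), middle (195) and high (194) by their share of H2-Aa, H2-Ab1, H2-Eb1 and Cd74 UMIs. Spp1, Pf4, Gpnmb, Ctsb, Ctsd and Fabp5 fall in steps from low to high and Il1b, Ccr2 and H2-DMa climb.

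MHC class II genes varied together over cells. Over 556 members thinned to 3000 UMIs, H2-Ab1 and H2-Aa had a Spearman correlation of 0.905 and H2-Ab1 and Cd74 of 0.877. The cells share a library, and the values are given as a description. H2-Aa, H2-Ab1 and H2-Eb1 sit side by side on chromosome 17, and their promoters are known for a shared module of X and Y boxes at which Ciita is recruited. The 250 bases before the start of H2-Aa (GRCm38.p6, chr17:34287824-34288073, minus strand) and H2-Eb1 (chr17:34305617-34305866, plus strand) are shown because both belong to this set, with capitals on matches to GATTGG, the core of the Y box, or AGCAAC, a core of the X1 box, on either strand. They come from RefSeq, whose table had no entry for H2-Ab1.
H2-Aa: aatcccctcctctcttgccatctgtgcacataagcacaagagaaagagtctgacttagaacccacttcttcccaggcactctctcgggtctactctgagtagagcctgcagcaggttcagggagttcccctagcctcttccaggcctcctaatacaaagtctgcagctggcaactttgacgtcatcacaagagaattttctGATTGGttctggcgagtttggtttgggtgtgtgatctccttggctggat
H2-Eb1: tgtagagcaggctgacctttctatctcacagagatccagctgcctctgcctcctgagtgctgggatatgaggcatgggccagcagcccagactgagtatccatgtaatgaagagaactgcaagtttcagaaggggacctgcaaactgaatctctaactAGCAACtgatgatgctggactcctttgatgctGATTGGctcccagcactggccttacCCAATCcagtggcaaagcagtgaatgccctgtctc
H2-Aa had 1 match to the Y box core and 0 to the X1 core, and H2-Eb1 had 2 and 1. Of 32851 promoter windows of this length, 14.6% held the Y box core and 12.2% the X1 core. A match is a description of letters and not of binding.

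Between the members lowest and highest in C1q (195 and 194 cells), 111 of 4687 genes (2.37%) were at least 2-fold higher in the high set and 107 (2.28%) at least 2-fold lower. Interferon genes led, with 11 of 13 higher and 0 lower. Ifit3 was at 15.1 CPM in the low set, 58.3 in the middle and 152 in the high set, and had a UMI in 6.67% and 24.7% of cells of the low and high set. Apoe went from 6873 to 10673 and 23417 and Sepp1 from 957 to 2002 and 3077. Of 11 monocyte genes, 7 were lower and 0 higher, with Vcan at 241, 132 and 33.7. The lower genes with the largest ratios were Cav1, Sparc and Col1a1, each of which reached the minimum only through the low set. Col1a1 was at 209 CPM in the low set against 12.03 in the high set, although it was seen in similar shares of cells, 18.5% and 14.4%. The part of the members with most fibroblast RNA in the lower genes was not tested.

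The other libraries held Csf1r-positive cells mostly without C1q, 395 in blood and 158 in bone marrow that met every criterion but the C1q one. Their C1qb was at 3.39 and 2.68 CPM. They carried the monocyte genes at high levels, with Plac8 at 4207 in blood and 3729 in marrow and Ly6c2 at 856 and 1651, against 291 and 45.3 in the tendon members. Apoe was at 1124 and 908, Gpnmb at 3.55 and 3.35, Mrc1 at 1.94 and 2.01 and Spp1 at 4.68 and 11.1, and all 4 were higher in the members at 14034, 239, 609 and 1721. Cxcl2 had 0 UMIs in both, which allows up to 0.484 CPM in blood and 1.005 in marrow, 3 UMIs over the group in each, against 4495 in the members. Il1b was at 49.9 and 3.69 against 661. As enzymatic digestion was part of only the tendon preparation, these differences cannot be told apart from the preparation.

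The 37 blood cells that met the whole rule differed in many genes from the tendon members. Their median depth was 25869 UMIs. Timd4, a receptor for dying cells, was at 188 CPM and 0.869 in the tendon members, Icam2 at 709 and 4.78, and Fn1 at 7286 and 570.3. Trem2 was at 60.3 against 569.9 and Spp1 at 10.2 against 1721, whereas Pf4 was at 4618 against 2788. Gata6 was at 81.7 in the blood cells and 0.145 in the tendon members. These genes were chosen after their values were seen. Barcodes were shared by few cells: 6 between blood and tendon, 2 between marrow and blood and 1 between marrow and tendon, of which 1 was a member.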

How the data were processed

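The authors deposited UMI count matrices, whole-number counts of RNA molecules per gene and cell, for 3 libraries made with the 10x 3' v3 kit. Per the file headers they were made with Cell Ranger 5.0.1, and the submitters' processing notes name mm10; no source used here names the annotation. From these counts, cells with at least 200 genes and at most 20% mitochondrial UMIs were kept. Members and gene lists were chosen with earlier results of these data known, and the rule used the same cells, so all comparisons are descriptions. Counts were summed per group and divided by group totals, with exact Poisson intervals; ratios used exact binomial splits and shares Clopper-Pearson intervals. A gene entered a comparison with at least 100 UMIs over both groups, so some passed only through the group where they were high. A 2-fold ratio marked a difference. Reads were not recounted, so reads shared by near-identical genes follow the authors' counting. Named genes were those of the lists and, in each direction, the 10 with the largest ratio among genes with a UMI in 10% or more of the cells where they were higher, rule genes left out. Other genes were picked from the 12 largest ratios in splits of the members, after their values were seen. A few genes of the lists are not reported here. Doublets were not removed: Scrublet's automatic threshold marked 0 of 4978 tendon cells, and removing the 198 highest scores, 21 of them members, was an alternative. Depth per library was 90621052 UMIs over 5629 tendon cells, 22542581 over 2241 blood cells and 49580625 over 1855 marrow cells. Alternatives changed the limits of the rule, the filters, the count minimum and the depth. Ratios were tested on simulated data. Python 3.11.15, numpy 2.4.6, scipy 1.17.1, pandas 2.3.3, scanpy 1.11.5 and matplotlib 3.10.9 were used.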

Additional observations from a re-analysis of the deposited data

How the results depend on the processing

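For 199 log2 ratios of genes named in the text or among the 10 with the largest differences, with at least 100 UMIs, 16 alternatives (15 planned) gave 3184 values. Of these, 3048 changed by less than 0.25 or kept their direction and their side of 2-fold, 124 changed more, and 12 reversed from a difference of at least 2-fold. A ratio under 2-fold changed sign in 79 values. Of the reversals, 6 came with the removal, in every group, of cells with collagen or keratin RNA or little myeloid RNA, chosen after seeing the data. Against low-C1q cells, Dcn became 0.44, Prg4 0.41, Krt6a 0.12, Fabp4 1.79 and Igf1 2.28, and against C1q cells with resident markers Prg4 became 0.32. The same removal took Ccr2 from 0.03 to -0.36 and Tnf from 0.13 to -0.25 against low-C1q cells. Igf1 against low-C1q cells also reversed with at least 3 Csf1r UMIs (1.57), with cells weighted equally (0.22) and with cells thinned to 3000 (0.41) and 1000 UMIs (0.042). Fabp4 reversed with at least 3 Csf1r UMIs (1.06), and Prg4 against C1q cells with resident markers without the highest doublet scores (1.06). Removing the cells with stromal or little myeloid RNA also left 17.1% of the remaining cells as members and 177 genes lower than in low-C1q cells in place of 882. The share of cells meeting the rule was 13% with at least 5 C1q UMIs per 10000, 9.94% with at least 20, 6.81% with 0 resident-marker UMIs and 8.88% with at least 3 Csf1r UMIs; the last left 324 genes lower than in low-C1q cells. Against low-C1q cells, higher and lower genes numbered 471 and 2033 at a minimum of 20 UMIs per gene, 140 and 262 at 500, 123 and 152 with cells thinned to 3000 UMIs and 52 and 60 at 1000. Against C1q cells with resident markers they numbered 329 and 673, 55 and 103, 68 and 124, and 32 and 56. Fewer genes reach the minimum in thinned cells and at 500 UMIs. No paired analysis was possible because each tissue has 1 library, and no replicate could be left out. Genes such as Ciita and Lyve1 had few UMIs in members, and the part of depth in this was not tested.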
